A study of Mus musculus with 14 samples.

Results

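The 10 genes examined here control whether a cell enters or leaves the cell cycle at the G1 phase. They were the cyclin D genes Ccnd1, Ccnd2 and Ccnd3, their partner kinases Cdk4 and Cdk6, the CDK inhibitor genes Cdkn1a, Cdkn1b, Cdkn1c and Cdkn2c, and Rb1. Members were fixed by name, with earlier results of these data known. A peak was counted when the deposited lists gave it to 1 of these symbols. Of 10303 peaks in 12 lists, which were given to 4384 genes, 16 peaks were given to 4 of the 10 genes.

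The lists came from ChIP-seq, in which DNA bound by a protein is pulled down with an antibody and sequenced, against the muscle transcription factors MyoD and MyoG. Mice were labeled wild-type and carried a mito-Dendra2 allele that a Pax7-Cre(ERT2) driver switches on, so that muscle stem cells (MuSCs) and their progeny fluoresce. All mice received tamoxifen (75 mg/kg on each of 5 days), and 2 days after the last dose 50 µL of 1.2% BaCl2 was injected into 1 tibialis anterior muscle to injure it and saline into the other. After a further 2 days, quiescent cells (QSCs, CD34+, Dendra2+) were sorted from the saline muscle and activated cells (ASCs, CD34-, Dendra2+) from the injured muscle. Each antibody was used on 3 ASC and 3 QSC libraries, which makes 4 groups, and 2 input libraries were not analysed here. The replicates are described as biological, while the number of mice behind a library is not given in the sources used here. The lists hold no RNA levels, and the sorted cells could not be checked against marker genes.

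D-type cyclins bind CDK4 and CDK6, and the active kinases phosphorylate the Rb protein. Phosphorylated Rb releases E2F factors, which turn on genes of DNA replication. INK4 proteins such as p18 (Cdkn2c) block CDK4 and CDK6, and the Cip/Kip proteins p21 (Cdkn1a), p27 (Cdkn1b) and p57 (Cdkn1c) block cyclin-bound kinases. Myoblasts divide with this machinery active and must switch it off before they fuse into myofibers, and cyclin D3 and p21 are both known to rise when they differentiate. MyoD and MyoG bind the E-box, a motif of 6 letters spelled CANNTG, and MyoD favors the forms CAGCTG and CAGGTG.

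MyoD peaks were listed at Ccnd1, Ccnd3 and Rb1 in ASCs and at Cdkn1a in QSCs. The ASC MyoD libraries held 5, 6 and 3 peaks at the 10 genes and the QSC MyoD libraries 1, 1 and 0. No MyoG library of either state held any. Ccnd2, Cdkn1b, Cdkn1c, Cdkn2c, Cdk4 and Cdk6 had no listed peak in any of the 12 libraries, and no peak given to another gene lay inside them, so these 6 members count as not bound in these lists. The lists held 2262 to 2652 peaks in ASC MyoD, 605 to 916 in ASC MyoG, 139 to 174 in QSC MyoD and 120 to 167 in QSC MyoG libraries. Read depth is unknown, so an unlisted peak sets no limit on binding. Whether more cells were bound or each cell was bound more strongly cannot be told apart in such pooled material.

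**Figure D1:**
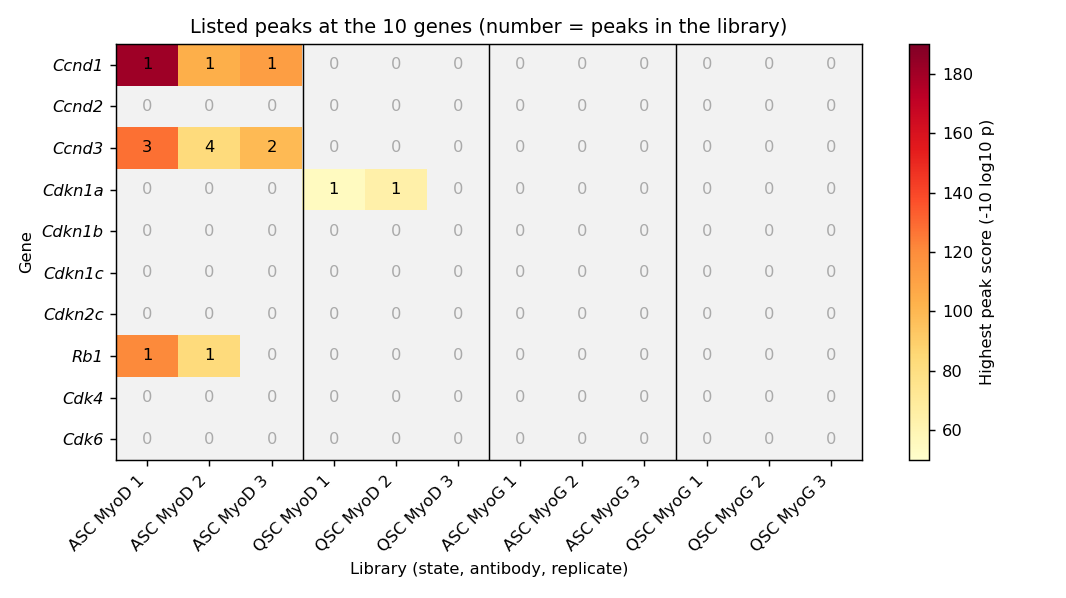
Rows are the 10 genes and columns the 12 libraries; the number in each cell counts listed peaks given to the gene, and color gives the highest peak score (10 times minus log10 p). Ccnd1 and Ccnd3 fill all 3 ASC MyoD columns, Rb1 fills 2 of them, Cdkn1a fills 2 QSC MyoD columns, and all MyoG columns hold 0.

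Peaks that overlapped by at least 1 bp among the 6 lists of an antibody were merged into regions. The 16 peaks formed 7 regions, of which 4 were intronic, 2 at promoters and 1 distal intergenic by the annotation in the lists. A region with peaks in at least 2 of 3 ASC libraries and in no QSC library of the same antibody is termed ASC-specific, and the converse QSC-specific. For MyoD, 5 of the 7 regions were ASC-specific (3 in all 3 libraries and 2 in 2 libraries), 1 was QSC-specific and 1 was listed in a single ASC library. The ASC-specific regions belonged to 3 of the 10 genes, against 5.92% of 21900 protein-coding genes in RefSeq. Of the 3223 genes given any peak in the MyoD lists, 50.1% were given an ASC-specific region, against 3 of the 4 members with a peak. The second share counts only genes that were given a peak at least once, and it is higher than the first for that reason. Neither share takes account of gene length, which was 94.6 kb for Ccnd3, 133 kb for Rb1 and 9.90 kb for Ccnd1.

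RefSeq start windows (GRCm38.p6, the assembly named mm10) were matched for 6 of the 10 members. Ccnd1, Ccnd2, Cdkn1c and Rb1 had none, so Ccnd1 and Rb1, which had ASC-specific regions, were not searched. Of the 9 windows, 0 overlapped a peak of any library, against 1.23% of 32851 windows of all genes. Thus 0 of 9 is no result about the members. The motif shares that follow cover the 6 matched members only, of which Ccnd3 alone had an ASC-specific region. Of the 250 bases before each start, CANNTG was found in 3 of 9 windows, against 66.2% of all windows. The forms CAGCTG or CAGGTG (read on both strands, and counted within CANNTG as well) were found in 1 of 9 windows, against 27.7% of all windows. Several windows came from the same gene and base content was not matched. The motif shares were not tested and are no result about the members. The 3 windows below are shown because Ccnd3 is the member with a promoter region close to a RefSeq start, the second Cdkn1a start has a CAGGTG but no peak, and Cdk4 has the most E-boxes of the 6 members searched and no peak. Capitals mark CANNTG, and a window in lower case throughout has none.
Ccnd3, second start, chr17:47593217-47593466, plus strand: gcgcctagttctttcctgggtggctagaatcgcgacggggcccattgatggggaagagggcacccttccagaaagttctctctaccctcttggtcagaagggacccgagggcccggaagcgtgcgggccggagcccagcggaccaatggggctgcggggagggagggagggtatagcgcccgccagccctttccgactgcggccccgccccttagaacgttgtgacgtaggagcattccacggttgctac
Cdkn1a, second start, chr17:29093519-29093768, plus strand: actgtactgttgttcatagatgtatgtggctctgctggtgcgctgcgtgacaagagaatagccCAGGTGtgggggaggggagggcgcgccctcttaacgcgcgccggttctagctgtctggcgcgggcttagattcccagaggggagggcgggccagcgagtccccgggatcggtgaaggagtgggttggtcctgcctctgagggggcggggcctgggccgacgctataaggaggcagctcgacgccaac
Cdk4, chr10:127063285-127063534, plus strand: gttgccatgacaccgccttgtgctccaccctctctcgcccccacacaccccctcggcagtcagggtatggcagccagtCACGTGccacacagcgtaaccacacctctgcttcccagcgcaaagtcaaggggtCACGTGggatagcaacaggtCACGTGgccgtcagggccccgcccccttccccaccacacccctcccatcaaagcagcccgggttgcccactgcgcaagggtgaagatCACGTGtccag

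The Cdkn1a window holds a CAGGTG 187 bases before the start, and the 4 matches of Cdk4 are all CACGTG, the form favored by Myc family proteins. These are matches of letters, not measured sites. None of the 7 regions falls in these windows, and the Ccnd3 promoter region begins past the end of the Ccnd3 window.

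Ccnd3, the cyclin D gene whose product is kept in differentiated muscle cells, had the most regions of the 10 genes. Its ASC MyoD libraries held 3, 4 and 2 peaks and its QSC MyoD and all MyoG libraries held 0. The lowest ASC library thus lay above every QSC library. The mean was 3 ± 1 peaks in ASCs (SD, n = 3) and 0 in QSCs, with an exact two-sided permutation p-value of 0.1, which is as low as 3 against 3 libraries can go (0.312 after Benjamini-Hochberg adjustment over 3223 genes). MyoD against MyoG within ASCs, a comparison that shares the ASC MyoD libraries with the first, gave a difference of 3 peaks (exact permutation p-value 0.1, adjusted 0.384 over 3916 genes). For this comparison, here and below, the MyoG lists were shorter (605 to 916 peaks against 2262 to 2652). The share of all genes with a like difference was not computed. With 3 ASC-specific regions, Ccnd3 was among the 3.78% of 1615 genes with an ASC-specific region that were given at least 3. Gene length, 94.6 kb for Ccnd3, was not taken into account.

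All Ccnd3 regions lay inside the gene (ENSMUSG00000034165, chr17:47505051-47599689, plus strand, 94.6 kb, mm10). The region of highest score was in intron 1 of 5, 16.9 kb from the RefSeq start (chr17:47521338-47522505), and was listed in all 3 ASC libraries with scores of 128, 80.9 and 99.1 in replicates 1, 2 and 3. Here and below, the score is the peak caller's p-value written as 10 times minus log10 p, and the lowest score in the lists is 50. The mean was 103 ± 23.6 (SD, n = 3), and these peaks scored higher than or equal to 83.1%, 60.1% and 75.9% of the peaks in their own lists. The 3 peaks shared a stretch of 835 bp.

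A promoter region of Ccnd3 (chr17:47595154-47596181) was also listed in all 3 ASC libraries, with scores of 86.0, 60.9 and 52.0 and a mean of 66.3 ± 17.6 (SD, n = 3). Replicate 1 scored highest at both regions found in 3 libraries, and replicate 3 came close to the lowest listed score at the promoter. The lists place this region within 1 kb of a start, while its middle lay 2.20 kb past the second RefSeq start of Ccnd3 and 90.6 kb past the first. A region 37.1 kb into intron 1 (chr17:47541724-47542627) was listed in replicates 1 and 2 with scores of 63.7 and 52.2. Replicate 2 alone had a further intron 1 peak (chr17:47523050-47523893, score 82.7), which started 544 bp beyond the region of highest score. Scores at Ccnd3 therefore fell from the intron 1 region listed in 3 libraries to the promoter and then to the deeper intron region, but the ranges of neighbors in this order overlapped.

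**Figure D2:**
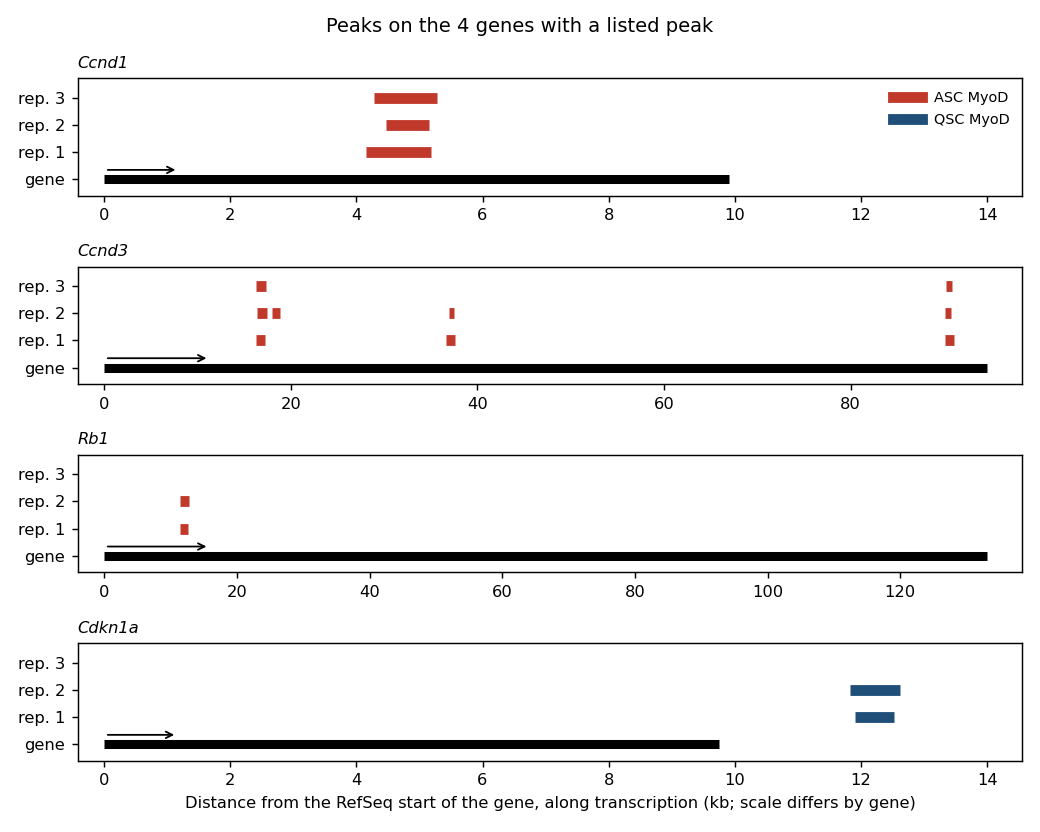
Each panel is 1 gene, with distance from its RefSeq start in kb along the direction of transcription on the x axis; the black bar is the gene, the arrow its direction, and colored bars are peaks of MyoD replicates 1 to 3. Ccnd3 peaks gather at 16.9, 37.1 and 90.6 kb, the Ccnd1 and Rb1 peaks lie inside the genes, and the Cdkn1a peaks lie past its end.

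Ccnd1 encodes cyclin D1, the D-type cyclin most tied to mitogen response. It had 1 peak in each ASC MyoD library and 0 in the other 9 libraries (exact two-sided permutation p-value 0.1 for ASC against QSC, adjusted 0.312, and 0.1 for MyoD against MyoG in ASCs, adjusted 0.384). The scores were 181, 104 and 112, with a mean of 132 ± 42.4 (SD, n = 3), the highest mean among the 7 regions. In their lists these peaks stood at the 92.4, 76.6 and 81.7 percentiles of score. The region (chr7:144934553-144935680) lay inside Ccnd1 (ENSMUSG00000070348, chr7:144929931-144939831, minus strand, 9.90 kb). It was annotated as promoter, 2 to 3 kb from a start, while its middle was 4.71 kb from the RefSeq start. The lists therefore measured from a different start, and the transcript this start belongs to was not checked. The stretch common to the 3 peaks was 684 bp, which was the whole of the replicate 2 peak. Of the 3223 genes with a MyoD peak, 31.7% had more peaks in every ASC library than in every QSC library, and Ccnd1 and Ccnd3 were 2 of the 4 members with a peak that did so.

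Rb1 encodes the pocket protein that cyclin D kinases phosphorylate, and it also helps myoblasts to leave the cell cycle for good. A single intronic region (intron 2 of 26, chr14:73313208-73314572, 12.1 kb from the start of ENSMUSG00000022105) was listed in ASC MyoD replicates 1 and 2 with scores of 121 and 82.7. Replicate 3 had none, so the ASC and QSC libraries overlapped at 0. The mean of 0.667 ± 0.577 peaks per ASC library (SD, n = 3) against 0 in QSCs gave p = 0.4 in the exact permutation test (adjusted p = 0.743), and against 0 in ASC MyoG libraries p = 0.4 as well (adjusted p = 0.852). Both Rb1 peaks were wide, at 1258 and 1312 bp, and shared 1205 bp. Rb1 is 133 kb long, and no other peak was listed within it. The nearest peaks given to neighbors, Itm2b (score 56.6) and Rcbtb2 (score 88.5), were each listed in ASC MyoD replicate 1 alone.

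**Figure D3:**
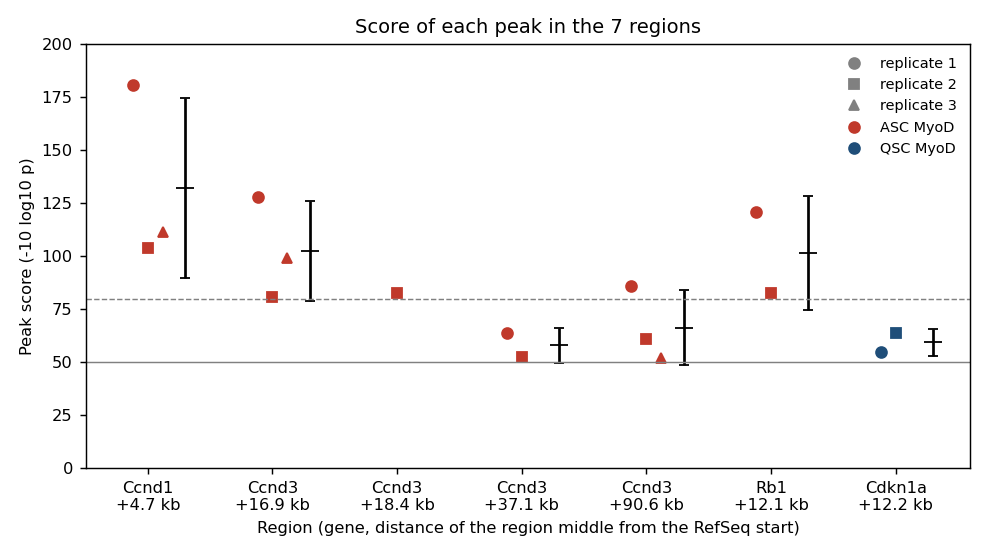
The y axis is the score of each peak (10 times minus log10 p) and the x axis the 7 regions, named by gene and by the distance of the region middle from the RefSeq start. Shapes are replicates and colors are ASC MyoD or QSC MyoD, black bars are the mean ± SD where at least 2 libraries list the region, and the lines mark scores of 50 and 80. All peaks of Ccnd1, of the first Ccnd3 region and of Rb1 reach 80, and both Cdkn1a peaks lie below it.

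At a stricter score of 80 (p-value 1e-08), 3 of the 5 ASC-specific regions were left, and each kept all of its peaks: the Ccnd1 region, the first intron 1 region of Ccnd3 and the Rb1 region. The Ccnd3 promoter then had 1 peak, in replicate 1. Set beside all 1976 ASC-specific MyoD regions, whose median mean score was 82.2, the Ccnd1 region scored above 83.9% of them, the first Ccnd3 region above 71.7% and the Rb1 region above 70.9%. The Ccnd3 promoter region scored above 22.4% and the deeper intron region above 6.73%. The members thus ranged from the low end of the distribution to its upper part, and none was near the top score of any ASC MyoD list (564 to 755). By replicate, the median score of member peaks was 121, 81.8 and 99.1 against 75.1, 72.1 and 68.9 for the whole list, from 5, 6 and 3 peaks.

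**Figure D4:**
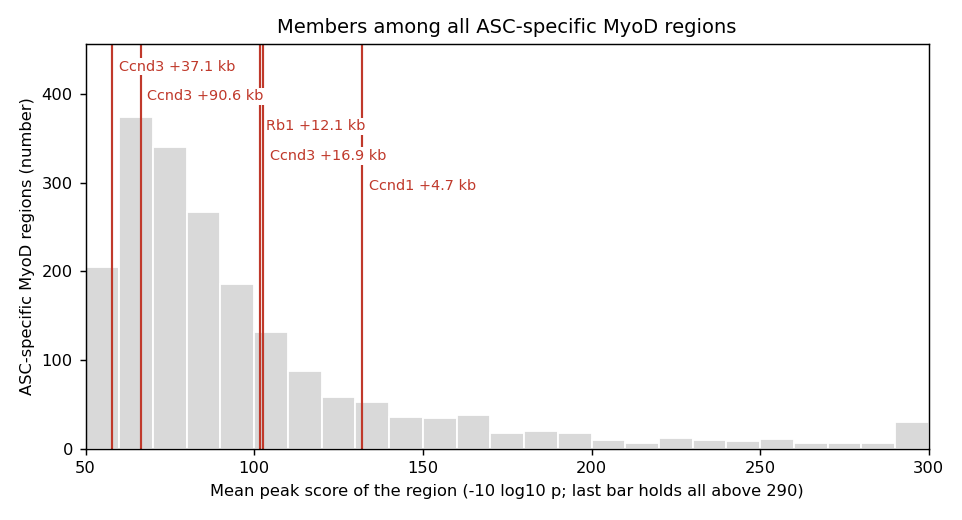
Gray bars count the ASC-specific MyoD regions by mean peak score (10 times minus log10 p) in steps of 10 (the last bar holds all above 290), and red lines mark the 5 that were given to Ccnd1, Ccnd3 and Rb1. The lines spread from a mean score of 58.0 at the deeper Ccnd3 intron region to 132 at Ccnd1.

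Cdkn1a encodes p21, and its region ran opposite to those of Ccnd1, Ccnd3 and Rb1. It was listed in QSC MyoD replicates 1 and 2 with scores of 54.7 and 63.9, in no ASC MyoD library and in no MyoG library. The QSC replicate 3 list had no peak there, so the groups overlapped at 0, and the difference of -0.667 peaks per library (ASC minus QSC) gave p = 0.4 in the exact permutation test (adjusted p = 0.743). The region (chr17:29102801-29103598, distal intergenic) began 2.08 kb past the end of Cdkn1a (ENSMUSG00000023067, chr17:29090979-29100722, plus strand). Its peaks stood at the 50.3 and 73.4 percentiles of their lists. Both fell below a score of 80. QSC-specific MyoD regions were given to 12 of 21900 protein-coding genes (0.0548%), and Cdkn1a was 1 of them. That share also counts genes without any peak, and the share among genes with a QSC MyoD peak was not computed. A single gene with 2 peaks is no result about the members. The ASC MyoD peak nearest to the QSC region was 39.0 kb from it. This same peak was also the one nearest to Cdkn1a itself. It was listed in replicate 2 alone (score 55.1) and ended 27.2 kb before the gene.

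The lists give each peak to a single gene, so the surroundings of the 10 genes were also read without regard to that name. Within 100 kb of the gene bodies, 7 of the 10 genes had an ASC-specific MyoD region, against 21.6% of the 21900 protein-coding genes. The reach of 100 kb was chosen with the values in view, and longer genes cover more ground. The 4 genes gained were Cdkn1a, Cdkn1b, Cdkn2c and Cdk4, through 5 regions. Cdk6, the longest of the 10 at 190 kb, had no peak of any library in reach.

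The neighborhood of Cdkn1a held peaks of both states. In ASCs, 2 MyoD regions upstream of Cdkn1a were listed in all 3 libraries and were given to Trp53cor1, a long noncoding RNA gene also known as lincRNA-p21. The first (chr17:29056357-29057442, annotated as promoter) ended 33.5 kb before the Cdkn1a start and had scores of 139, 172 and 182 in replicates 1, 2 and 3, with a mean of 164 ± 22.5 (SD, n = 3). The second (chr17:29050487-29051443, distal intergenic) ended 39.5 kb before it and had scores of 166, 110 and 66.7. The mean of the first was above that of the Ccnd1 region, although the ranges of scores overlapped. Neither region had a QSC or MyoG peak, while the QSC peaks lay on the other side of Cdkn1a. A further 2 peaks given to Trp53cor1 were each listed in a single ASC library.

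At Cdkn1b, which encodes p27, a distal region 33.9 kb past the start (chr6:134953826-134954744) was listed in all 3 ASC MyoD libraries with scores of 93.9, 57.5 and 119. The lists gave it to Lockd, a long noncoding RNA gene just downstream of Cdkn1b. QSC MyoD replicate 3 had a different peak in intron 1 of Lockd with a score of 51.9. Near Cdk4, a region 82.5 kb before the start (chr10:126980574-126981593) was listed in 3 ASC MyoD libraries with scores of 87.3, 71.6 and 103 and was given to the promoter of Ctdsp2, a phosphatase gene. Near Cdkn2c, an intronic region of Gm12811 (chr4:109574048-109574976) was listed in ASC MyoD replicates 1 and 3 with scores of 60.1 and 50.5, both low in their lists. Ccnd2 had 1 peak in reach, in ASC MyoD replicate 2 (score 56.4), given to Platr31.

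**Figure D5:**
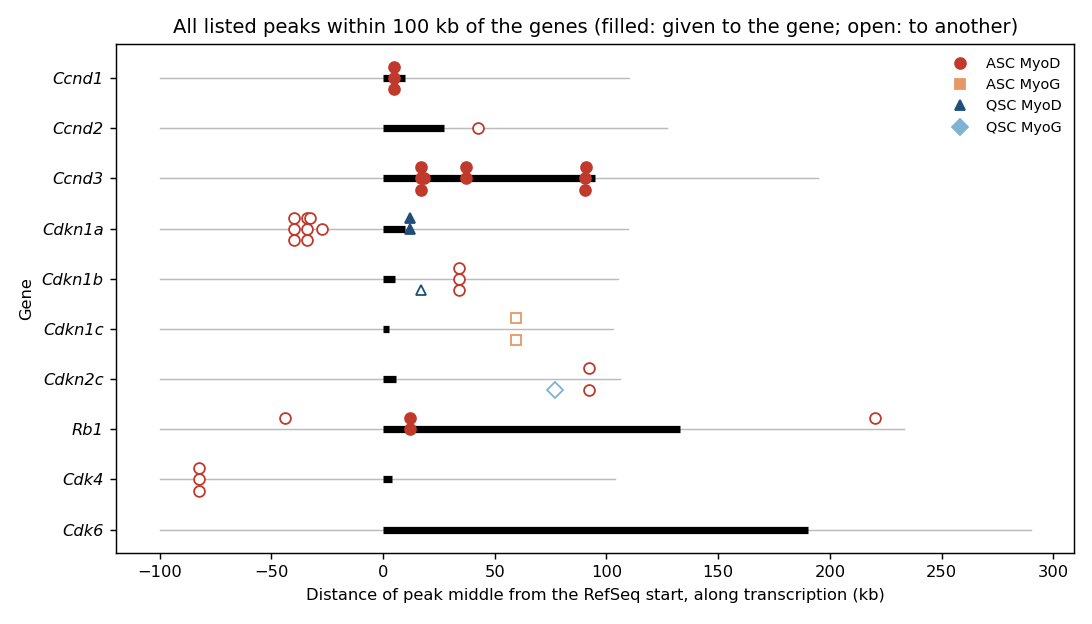
Each row is a gene, with the gene body in black and the 100 kb on either side in gray; the x axis is the distance of each peak middle from the RefSeq start in kb along transcription. Filled symbols are peaks given to the gene, open symbols peaks given to another gene, and colors and shapes mark the 4 groups. Open ASC MyoD symbols lie near Cdkn1a, Cdkn1b, Cdk4 and Cdkn2c, and Cdk6 has none.

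MyoG regions listed in at least 2 libraries reached 1 of the 10 genes in this reading. An intronic region of Kcnq1 (intron 15 of 15, chr7:143401184-143402048), 59.4 kb from the start of Cdkn1c in the same imprinted domain, was listed in ASC MyoG replicates 1 and 3 with scores of 73.5 and 88.1. No MyoD library had a peak within 100 kb of Cdkn1c. ASC-specific MyoG regions lay within 100 kb of 0.717% of protein-coding genes and were given by name to 0.187%, and to none of the 10 members by name. A single QSC MyoG peak (replicate 3, score 52.8) lay 76.9 kb from the start of Cdkn2c, in intron 1 of Gm12811.

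The other genes of the pathway were read from a list of 31 genes that work around the same step, such as E2F factors, cyclin E and CDK2. This list, too, was chosen with earlier results of these data known. ASC-specific MyoD regions were given to 4 of the 31 (12.9%, against 5.92% of protein-coding genes): E2f2, E2f6, Mnat1 and Mycn. Another 3 (Ccne1, E2f8 and Tfdp2) had a peak in a single ASC MyoD library, and 24 had none in any library. All peaks of the 31 genes came from ASCs, as did 90.9% of all listed peaks. E2f2, an activator of replication genes, had a promoter region (chr4:136174068-136175132) with scores of 125, 177 and 120 and a distal region (chr4:136164780-136165505) with scores of 85.0, 59.7 and 54.2. Mnat1 encodes a subunit of the kinase that activates CDKs. Its region of highest score, in intron 7 (chr12:73241590-73242747), scored 574, 358 and 505 with MyoD, with a mean of 479 ± 110 (SD, n = 3) against 132 at Ccnd1. The same place had a peak in all 3 ASC MyoG libraries (scores of 68.6, 70.1 and 88.7), which no member had. It lay 118 kb from the nearest RefSeq start of Mnat1. Mnat1 had further ASC-specific MyoD regions in intron 6 (chr12:73206059-73207668, scores of 168, 79.3 and 89.2) and intron 7 (chr12:73269623-73270590, scores of 79.8 and 68.1). Its mean of 3 ± 1 peaks per ASC MyoD library (SD, n = 3) was the same as that of Ccnd3. Mycn, an E-box factor that drives growth, had a distal region in replicates 2 and 3 (scores of 92.7 and 51.4), and E2f6, a repressor, had a distal region in the same libraries (64.5 and 70.7).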

How the data were processed

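Peak lists of 12 ChIP libraries were used as deposited. Per the labels, the submitters' processing notes name BWA 0.7.5, MACS, deepTools 3.5.0 and mm10. Which MACS release was run, whether inputs served as background and how peaks were filtered are not given in the sources used here. The authors called peaks in each library without pooling replicates, and annotated every peak with its gene and its position relative to it. The deposited score was read as 10 times minus log10 of the p-value, the MACS convention (lowest 50, p-value 1e-05) and is not normalized for depth. Scores therefore describe calls, not binding strength. MACS numbers peaks in order, and 5.63% to 25.7% of numbers per library had no listed peak.

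Peaks were merged at an overlap of at least 1 bp with Python 3.11.15 and pandas 2.3.3, and regions were classed by the libraries that listed them. Peaks per library were compared for each gene by exact two-sided permutation of libraries (20 relabelings, smallest p-value 0.1), with Benjamini-Hochberg adjustment over all genes with a peak, so no comparison could reach 0.05. The steps were tested on simulated peak lists. All 10 members are named, with list genes that had a region in at least 2 libraries and the 3 genes most like Ccnd3 in score. Ccne1, E2f8, Tfdp2 and the genes beside the members were named after their values were seen. The members and lists were chosen with earlier results of these data known. Gene spans and start windows came from RefSeq tables (GRCm38.p6). Strands of Ccnd1, Ccnd2, Cdkn1c and Rb1 came from general knowledge or intron order.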

Additional observations from a re-analysis of the deposited data

How the results depend on the processing

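The count of ASC-specific MyoD regions at the members (5 as reported) was 3 at a score of 80, 3 when peaks were required in all 3 libraries, and 10 when any region within 100 kb of a member was counted, a reading chosen after seeing the data. It ranged from 3 to 5 when single libraries were left out. Without ASC MyoD replicate 1 or 2 it was 3, because Rb1 and the deeper Ccnd3 intron region then had 1 library left. Members given such a region numbered 3 as reported, 7 within 100 kb, and 2 with peaks in all 3 libraries or without ASC MyoD replicate 1 or 2, where Rb1 dropped out. The QSC-specific region at Cdkn1a was lost (0) at a score of 80, in all 3 libraries and with distal intergenic peaks left out, and the count ranged from 0 to 1 when libraries were left out, with 0 without QSC MyoD replicate 1 or 2. ASC-specific MyoG regions numbered 0, and 1 within 100 kb. Pathway genes numbered 4 as reported, 2 at a score of 80, 2 in all 3 libraries, 2 without distal intergenic peaks and 7 with a peak in at least 1 library. Joining peaks at 50% mutual overlap or across gaps of 500 bp, naming the host gene, and keeping peaks within 100 kb of a start each left these counts as reported, although the last removed the intron 7 regions of Mnat1 and its MyoG region.

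With the replicate number as a block (replicate block), the Ccnd3 difference was 3 peaks and the exact sign-flip test gave p = 0.25, the smallest possible. Whether same-numbered libraries share animals is not stated, and their deviations in log2 peak number correlated between -0.986 and 0.999 over pairs of groups. Each correlation rested on 3 libraries per group, too few to tell whether animals were shared.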

Other observations

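Genes with score patterns most like that of Ccnd3, the member with the highest summed ASC MyoD score, were sought over the 12 libraries by Euclidean distance of log2(1 + summed score). Ccnd3 had summed scores of 277, 277 and 151 in ASC MyoD replicates 1, 2 and 3. The nearest genes were Ttll5 (276, 275 and 165, distance 0.125), Dmpk (266, 268 and 168, distance 0.167) and Gm23011 (264, 278 and 171, distance 0.188), and none of them had a peak in the other 9 libraries. Dmpk, the kinase gene whose repeat expansion underlies myotonic dystrophy, reached its sums with 1 peak in each ASC library, whereas Ccnd3 had 3, 4 and 2. Likeness in summed score therefore joined genes with different numbers of peaks.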
